A study of Mus musculus with 12 samples.

Results

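The comparison asks whether PD-1 blockade acted on gene expression by a different amount in 2 populations of tumour-infiltrating CD8+ T cells, those that carry asialo-GM1 (asGM1) at the surface and those that do not. All 12 libraries of the series enter it, as 6 pairs of an asGM1-negative and an asGM1-positive library with the same replicate number within a treatment. The cells were sorted as DAPI- CD45.2+ CD8+ from Panc02 tumours, grown from a mouse pancreatic cancer line, in wild type C57BL/6J mice, after the tumours had received either an isotype control or an antibody to PD-1. There were thus 4 groups of 3 libraries: isotype asGM1-negative, isotype asGM1-positive, anti-PD-1 asGM1-negative and anti-PD-1 asGM1-positive. The labels give no age, dose or sampling time, name no CD3 or T cell receptor gate, and do not say whether replicates came from separate mice. The p-values therefore speak of library-to-library spread, some of which may be technical.

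The quantity reported is a difference of differences on the log2 scale: asGM1-positive minus asGM1-negative under anti-PD-1, minus the same difference under isotype. It equals the anti-PD-1 minus isotype difference in asGM1-positive cells minus that in asGM1-negative cells. A positive value, called higher below, means that the asGM1-positive level stood higher relative to its asGM1-negative partner under anti-PD-1 than under isotype, and a negative value, called lower, the reverse. The difference inside a single pair is called the pair difference. Neither population is compared with the other on its own account.

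PD-1, encoded by Pdcd1, is an inhibitory receptor that activated T cells display and that dampens signalling from the T cell receptor and CD28 when it meets its ligands. Blocking antibodies against it are known to bring some intratumoral CD8+ T cells back into division and effector function, mostly from less differentiated, TCF1-expressing cells, while terminally differentiated cells respond less. Asialo-GM1 is a neutral glycosphingolipid, the core of ganglioside GM1 without its sialic acid, and is best known in mice as a surface marker of natural killer cells that activated CD8+ T cells can also carry.

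Library totals ran from 58148469 to 73206178 counts, and levels are in CPM, meaning counts per 1000000 of the TMM-adjusted total. A gene at 0 counts could have had a true mean of up to 3 counts (95% confidence, counting error only), or 0.0410 to 0.0516 CPM. CD8+ T cell genes were abundant in every library, with Cd8a between 1590.6 and 2581 CPM and Cd3e between 1018 and 1300.2 CPM. The anti-PD-1 pair of replicate 2 stood apart in the inducible chaperone gene Hspa1a, which reached 151 and 146 CPM there while the other 4 anti-PD-1 libraries held 22.5 to 32.6 CPM. Of 13 marker lists, 7 had summed levels whose 3 anti-PD-1 pair differences did not overlap the 3 isotype ones (exact permutation test, two-sided, p = 0.10 in each, the smallest that 3 against 3 allow, 0.186 after adjustment over the 13), and 5 did so with library totals in place of TMM scaling. Leaving Tnfrsf4 and Cdh1, both described below, out of the sums of their lists also left 5. In these bulk samples, fewer cells of a type and less RNA per cell cannot be told apart.

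With the pairs as blocks, 5 of 18657 genes passed edgeR's quasi-likelihood test at an adjusted p under 0.05, which is 0.0268% of the genes tested, and 2317 genes had an unadjusted p under 0.05. Cd160, Pclaf and Zdhhc14 were higher and Ifit3 and Ifit3b were lower. At an adjusted p under 0.10 there were 306 genes, 151 higher (0.809%) and 155 lower (0.831%), and both thresholds are used below with the threshold named. With library totals in place of TMM scaling, 384 genes passed at 0.10, 256 higher and 128 lower. The median over all genes tested was 0.02 on the log2 scale, and 52.5% of values were above 0. Taken without a model, the 3 anti-PD-1 pair differences lay above all 3 isotype ones for 1803 genes (9.66%) and below all of them for 1780 genes (9.54%). Among the 306 genes, 302 were in such non-overlapping order, which is no separate evidence, since the same pairs gave the calls.

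**Figure D1:**
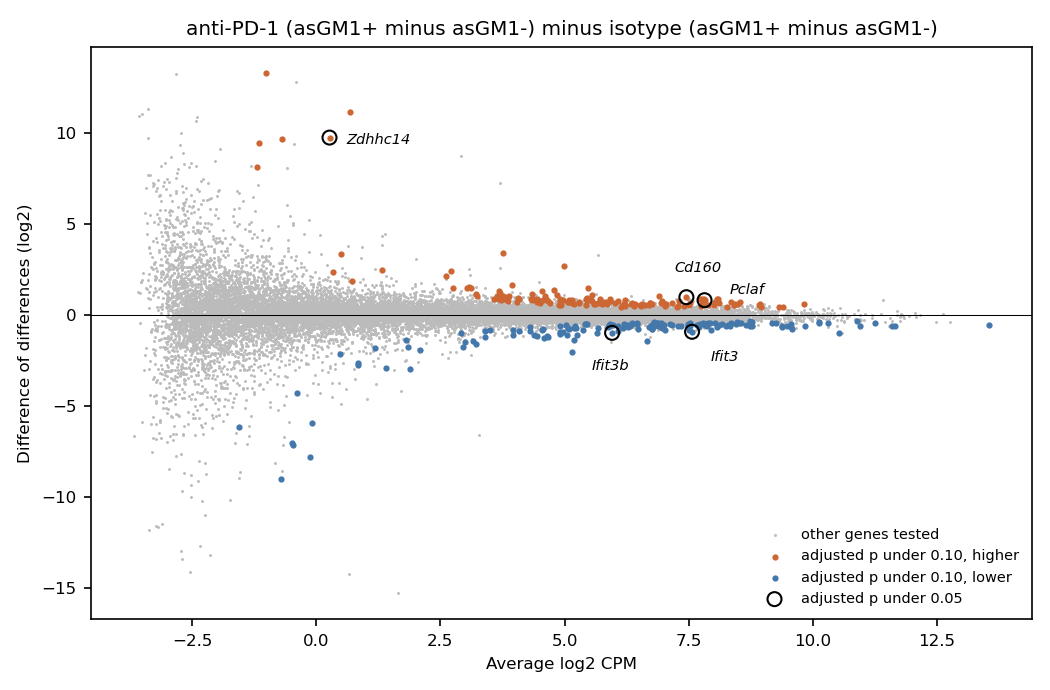
Difference of differences (log2, vertical axis) against average log2 CPM (horizontal axis) for the 18657 genes tested, with genes at an adjusted p under 0.10 in colour and the 5 genes under 0.05 circled. Values spread widely below an average log2 CPM of about 0, and 4 of the 5 circled genes lie within 1 log2 unit of 0 at high expression, while Zdhhc14 lies at 9.74.

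The number of calls rested on every pair and on the tool. Without the pair block, with the number as a block over all 4 groups, and with no filter on low counts, 0 genes passed at 0.05 (1329, 1545 and 2377 at an unadjusted p under 0.05), and leaving out a single pair left 0 or 1. DESeq2 called 786 genes and limma voom 155 with the same block, and a stricter filter gave 224. The direction of all 306 genes was the same in each of these fits that tested them, except for 1 gene without isotype replicate 2.

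Genes that copy and divide the genome made up the clearest group. Of 60 measured genes of DNA replication and S phase, 24 were higher at 0.10 and none was lower, and of 55 genes of mitosis and chromosome segregation, 17 were higher and none was lower. The calls are 40% and 30.9% of the lists, beside 0.809% of all genes called higher and 0.831% called lower. The replication genes had a median difference of differences of 0.54 with 60 of 60 above 0, and the mitosis genes 0.50 with 54 of 55 above 0, beside 0.02 over all genes. None of either list passed at 0.05. Pair differences were non-overlapping and higher for 50 of the 60 and 46 of the 55, and lower for none of either, against 9.66% and 9.54% of all genes.

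Pclaf encodes a small protein that binds the PCNA sliding clamp at replication forks. Its isotype levels were 241, 231 and 269.8 CPM in the asGM1-negative cells and 264, 251 and 293 CPM in the asGM1-positive cells. Its anti-PD-1 levels were 139.6, 127 and 133 CPM in the asGM1-negative cells and 259, 231 and 270.1 CPM in the asGM1-positive cells. The 3 anti-PD-1 asGM1-negative libraries thus lay below the other 9, whose ranges overlapped. The pair differences were 0.13, 0.12 and 0.12 under isotype and 0.89, 0.86 and 1.02 under anti-PD-1 (log2), and the difference of differences was 0.80 ± 0.08 (SE; edgeR adjusted p = 0.0387).

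Top2a, the topoisomerase that untangles sister chromatids before they separate, followed the same order of libraries. It stood at 296, 279 and 377 CPM in isotype asGM1-negative and 293, 272 and 381 CPM in isotype asGM1-positive libraries. Under anti-PD-1 it stood at 199, 143 and 155 CPM in the asGM1-negative and 318, 276 and 303 CPM in the asGM1-positive libraries. Only the anti-PD-1 asGM1-negative libraries lay outside the range of the rest, below it. The difference of differences was 0.88 ± 0.10 and did not pass at 0.05 (edgeR adjusted p = 0.0527). Lig1, which joins Okazaki fragments, gave pair differences of 0.02, -0.02 and 0.15 under isotype and 0.80, 0.78 and 0.88 under anti-PD-1. Its anti-PD-1 asGM1-negative libraries, at 102, 109.5 and 108 CPM, were again the lowest, with the other 9 between 139 and 221 CPM, and its difference of differences was 0.77 ± 0.09 (edgeR adjusted p = 0.0527).

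The promoters of the gene that passed and of Top2a are printed because members of the group shared a sign. Each line holds the 250 bases before the transcript start, 5′ to 3′ on the strand of the gene, from RefSeq on build GRCm38.p6, which is not the build of the counts. Capitals mark CCAAT or its reverse complement ATTGG, the CCAAT box found in many cell cycle promoters.
Pclaf, chr9:65890073-65890322, plus strand: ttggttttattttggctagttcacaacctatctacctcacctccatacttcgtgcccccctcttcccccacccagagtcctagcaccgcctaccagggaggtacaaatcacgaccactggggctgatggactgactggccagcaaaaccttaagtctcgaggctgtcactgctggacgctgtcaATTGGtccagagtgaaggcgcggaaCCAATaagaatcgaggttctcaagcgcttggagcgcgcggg
Top2a, chr11:99024190-99024439, minus strand: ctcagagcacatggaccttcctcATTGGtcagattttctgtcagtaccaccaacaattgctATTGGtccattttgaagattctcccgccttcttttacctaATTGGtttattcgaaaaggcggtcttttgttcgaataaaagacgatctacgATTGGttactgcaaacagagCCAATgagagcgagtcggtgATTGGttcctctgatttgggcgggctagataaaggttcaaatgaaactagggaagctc
Pclaf held 2 matches, 66 and 41 bases before the start (first base of the match), and Top2a held 6. The letters CCAAT occurred on either strand in 37.5% of 27025 promoters of this length, in 34 of 46 mitosis genes with a promoter in the table (73.9%) and in 30 of 48 replication genes (62.5%). A match is a description of letters and shows no binding.

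Other genes of replication had values of like size. Cdc6, which loads the MCM helicase onto origins, had a difference of differences of 0.78 ± 0.11 and Mcm2, a subunit of that helicase, one of 0.61 ± 0.12 (edgeR adjusted p = 0.061 and 0.085). Rad54l, of homologous recombination, gave pair differences of 0.18, -0.02 and -0.02 under isotype and 0.89, 1.07 and 0.81 under anti-PD-1 (difference of differences 0.89 ± 0.12, adjusted p = 0.0553). Cdca7, a target of MYC and E2F factors, gave 0.79 ± 0.11 (adjusted p = 0.0637). Over the whole replication list, the summed level was 7164, 6752 and 9589 CPM in isotype asGM1-negative and 8524, 7546 and 10051 CPM in isotype asGM1-positive libraries. Under anti-PD-1 the sums were 5602, 5118 and 5419 CPM and 8412, 8402 and 8354 CPM. These sums were lowest in the 3 anti-PD-1 asGM1-negative libraries, and the pair differences of the sum, 0.25, 0.16 and 0.07 under isotype and 0.59, 0.72 and 0.62 under anti-PD-1, did not overlap.

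The genes of division itself looked alike. Cdk1, the cyclin-dependent kinase of mitotic entry, stood at 109, 115 and 125 CPM in isotype asGM1-negative and 131, 149.7 and 147 CPM in isotype asGM1-positive libraries. Under anti-PD-1 it stood at 58.3, 64.3 and 63.5 CPM and 101, 107 and 130.4 CPM. The asGM1-positive level exceeded its partner's in all 6 pairs, by 0.26, 0.38 and 0.23 under isotype and by 0.79, 0.72 and 1.03 under anti-PD-1, and the difference of differences was 0.56 ± 0.11 (edgeR adjusted p = 0.0839). Kntc1, of the kinetochore checkpoint, gave 1.05 ± 0.15, Smc2, a condensin subunit, 0.75 ± 0.10, and Tpx2, a spindle assembly factor, 0.67 ± 0.10 (adjusted p = 0.0627, 0.0548 and 0.0637). Mki67, the gene of the proliferation antigen Ki-67, varied more between pairs, with 0.25, -0.08 and -0.46 under isotype and 0.33, 0.29 and 1.09 under anti-PD-1, and its difference of differences of 0.67 ± 0.25 did not pass either threshold (adjusted p = 0.309).

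The anti-PD-1 asGM1-negative group was where these genes stood apart. All 3 of its libraries lay below the other 9 for 43 of 55 mitosis genes and 49 of 60 replication genes, against 798 of 18657 genes in all. Without the anti-PD-1 pair of replicate 2, which stood apart in Hspa1a, the medians were 0.48 for mitosis and 0.51 for replication, and no member passed at 0.10. Marker sums of plasmacytoid dendritic cells (pDC) were on the higher side as well, with pair differences of -0.56, -0.31 and -0.48 under isotype and -0.08, -0.02 and -0.18 under anti-PD-1, and those of CD8 T cells on the lower side, while those of macrophages overlapped (0.42, 0.57 and 0.17 and 0.44, 0.31 and 0.59). The pDC sum was mostly Irf8, Runx2 and Bst2, and the part of other cells in the cell cycle values was not tested.

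**Figure D2:**
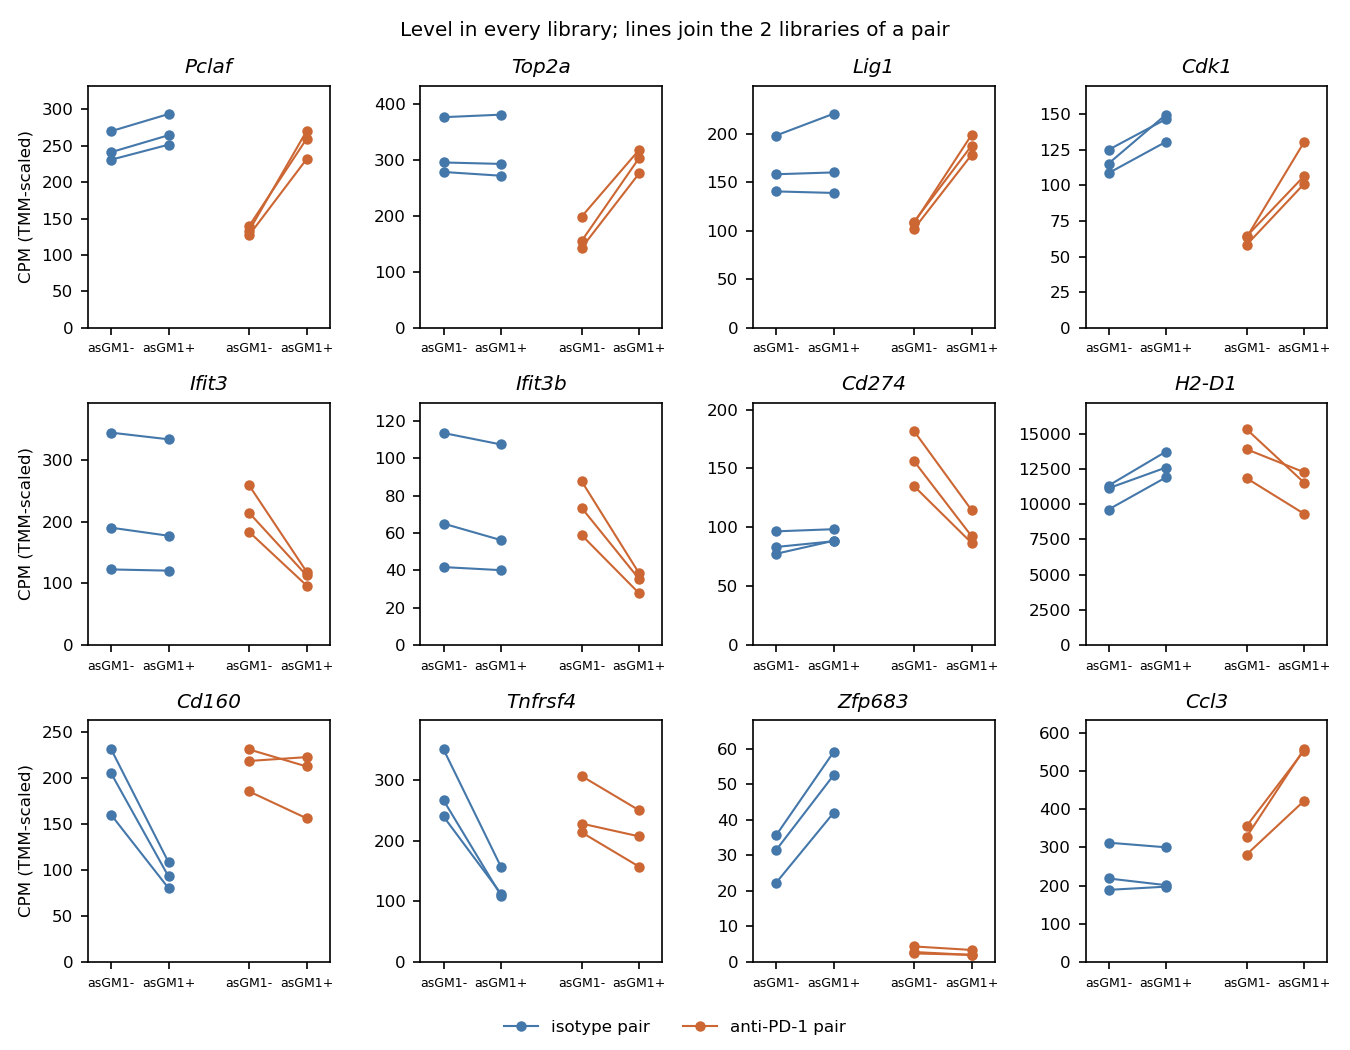
Level of 12 genes in every library (TMM-scaled CPM on linear axes that start at 0, each gene on its own axis); lines join the asGM1-negative and asGM1-positive library of a pair, blue for isotype and orange for anti-PD-1. Pclaf, Top2a, Lig1 and Cdk1 are lowest in the 3 anti-PD-1 asGM1-negative libraries, Ifit3 and Ifit3b are lowest in the 3 anti-PD-1 asGM1-positive libraries, and Cd160 and Tnfrsf4 are lowest in the 3 isotype asGM1-positive libraries.

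Genes induced by interferons, the cytokines that switch on antiviral and antigen presentation programmes, had the opposite sign. Of 71 measured interferon-stimulated genes, 2 were lower at 0.05, 12 (16.9%, beside 0.831% of all genes) were lower at 0.10 and none was higher at either threshold. The median was -0.27, with 61 of 71 below 0, and pair differences were non-overlapping and lower for 34 (background 9.54%) and higher for 1 (9.66%). The other lower genes at 0.10 included Usp18, Cmpk2, Irf7 and Ifit1, which were chosen as examples after their values were seen and ranged from -0.74 (Cmpk2) to -0.55 (Usp18).

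Ifit3, an antiviral protein that binds other IFIT proteins, stood at 345, 191 and 123 CPM in isotype asGM1-negative and 334, 177 and 121 CPM in isotype asGM1-positive libraries. Under anti-PD-1 it stood at 215, 259.5 and 184 CPM in the asGM1-negative and 113, 119 and 96.6 CPM in the asGM1-positive libraries. The isotype pairs differed widely from each other while the members of each pair were close, and the 3 anti-PD-1 asGM1-positive libraries lay below the other 9. Pair differences were -0.05, -0.10 and -0.02 under isotype and -0.92, -1.12 and -0.93 under anti-PD-1, and the difference of differences was -0.94 ± 0.09 (SE; edgeR adjusted p = 0.0387). Ifit3b, a near-identical copy next to it, had pair differences of -0.08, -0.21 and -0.06 and -1.05, -1.18 and -1.08 and a difference of differences of -1.0 ± 0.10 (edgeR adjusted p = 0.0387). How reads that match both copies were counted is not given in the sources used here, so these are not 2 independent calls. Over the alternatives, which include fits without the pair block or with libraries left out, the adjusted p of Ifit3 reached 0.957.

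The promoters of the pair are printed because both genes passed and the members share a known control element. Lines are as above, and capitals mark matches to GAAA, any 2 bases and GAAA, or to its reverse complement, the core of the interferon-stimulated response element.
Ifit3, chr19:34583279-34583528, plus strand: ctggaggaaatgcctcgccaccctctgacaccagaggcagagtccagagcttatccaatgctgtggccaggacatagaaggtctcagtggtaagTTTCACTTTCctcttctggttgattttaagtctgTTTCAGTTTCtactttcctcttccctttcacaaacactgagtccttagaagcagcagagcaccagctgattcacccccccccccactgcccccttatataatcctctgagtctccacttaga
Ifit3b, chr19:34607707-34607956, plus strand: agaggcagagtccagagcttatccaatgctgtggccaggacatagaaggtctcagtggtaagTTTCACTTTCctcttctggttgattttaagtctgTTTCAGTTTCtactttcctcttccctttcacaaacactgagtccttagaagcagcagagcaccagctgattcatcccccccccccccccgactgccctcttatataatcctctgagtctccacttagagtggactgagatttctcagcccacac
Each held 2 matches, TTTCACTTTC and TTTCAGTTTC, which began 156 and 122 bases before the start in Ifit3 and 188 and 154 bases before it in Ifit3b. Bases downstream of the start were found in an annotated transcript of Ifit3 but in none of Ifit3b. The start of Ifit3b, and the distances counted from it, are therefore less certain. The motif occurred on either strand in 3.46% of 27025 promoters and in 28 of the 55 interferon-stimulated genes with a promoter in the table (50.9%), a share that describes the list and not these libraries.

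Cd274, the interferon-inducible gene of the PD-1 ligand PD-L1, was measured at 83.2, 96.5 and 77.4 CPM in isotype asGM1-negative and 88.1, 98.3 and 88.4 CPM in isotype asGM1-positive libraries. The anti-PD-1 values were 182, 156 and 135 CPM in the asGM1-negative and 114, 92.4 and 86.6 CPM in the asGM1-positive libraries. Here the anti-PD-1 asGM1-negative libraries were the highest, above the other 9. The difference of differences was -0.79 ± 0.09 (edgeR adjusted p = 0.0527). The class I molecule H2-D1, which presents peptides to CD8+ T cells, gave pair differences of 0.18, 0.28 and 0.31 under isotype and -0.35, -0.41 and -0.18 under anti-PD-1, of opposite sign in the 2 treatments, and a difference of differences of -0.57 ± 0.08 (adjusted p = 0.0553). The summed interferon list gave pair differences of -0.09, -0.02 and -0.07 under isotype and -0.27, -0.29 and -0.15 under anti-PD-1, which did not overlap. Its median ranged from -0.46 to -0.10 over all alternatives.

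Receptors that restrain T cells were split between the directions. Of 25 inhibitory receptors, 1 (Cd160) was higher at 0.05, and at 0.10 Cd160, Ceacam1 and Btla were higher while Cd274, Cd244a, Pvrig and Cd96 were lower. These are 12% and 16% of the list, beside 0.809% and 0.831% of all genes. The median was -0.06, and 7 were in non-overlapping order in each direction (28%, beside 9.66% higher and 9.54% lower over all genes).

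Cd160 encodes an immunoglobulin-family receptor of cytotoxic lymphocytes that binds HVEM. Its levels were 205, 160.1 and 232 CPM in isotype asGM1-negative and 92.9, 80.2 and 108 CPM in isotype asGM1-positive libraries. With anti-PD-1 they were 185, 231 and 218 CPM and 156, 213 and 223 CPM. The 3 isotype asGM1-positive libraries lay below the other 9, and the anti-PD-1 pairs differed little inside. Pair differences of -1.14, -0.99 and -1.09 and -0.25, -0.12 and 0.03 gave a difference of differences of 0.97 ± 0.10 (SE; edgeR adjusted p = 0.0387).

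Cd244a, the receptor 2B4 that can activate or restrain cytotoxic cells, had 0.95, 0.83 and 0.91 under isotype and 0.15, 0.27 and 0.28 under anti-PD-1, positive in all 6 pairs. Its difference of differences was -0.67 ± 0.09 (edgeR adjusted p = 0.0548). The drug target Pdcd1 was expressed at 1260.2, 1633 and 1569 CPM and 1753, 2047 and 1783 CPM in the isotype groups and at 2295, 2185 and 2419.6 CPM and 2212, 2347 and 2328 CPM in the anti-PD-1 groups, asGM1-negative first in each. These pair differences, 0.48, 0.33 and 0.18 and -0.05, 0.10 and -0.06, did not overlap, but the difference of differences of -0.33 ± 0.09 passed neither threshold (adjusted p = 0.185). Havcr2 (TIM-3) gave -0.21 ± 0.14, Lag3 0.22 ± 0.11, Tigit -0.06 ± 0.19 and the ectonucleotidase gene Entpd1 (CD39) -0.21 ± 0.09, with adjusted p from 0.376 to 0.945. Tox, a factor that sustains the exhausted state, gave 0.55 ± 0.14 (adjusted p = 0.158), and Eomes, a T-box factor, 0.75 ± 0.19 (adjusted p = 0.144). None of the 25 exhaustion and chronic activation regulators passed at 0.10, while 5 (20%, beside 9.66% of all genes) were in non-overlapping order on the higher side and none (beside 9.54%) on the lower.

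Among costimulatory receptors, Tnfrsf4 (OX40), which sustains T cells after activation, was measured at 351, 267 and 240.3 CPM in isotype asGM1-negative and 157, 109.6 and 113 CPM in isotype asGM1-positive libraries. Under anti-PD-1 it was at 214, 307 and 229 CPM and 157, 250.5 and 207 CPM. As with Cd160, the lowest group was isotype asGM1-positive, although its highest library and the lowest anti-PD-1 asGM1-positive library were nearly level. The difference of differences was 0.89 ± 0.11 (edgeR adjusted p = 0.0527). Tnfrsf4 is also a marker of regulatory CD4+ T cells, and the summed CD4 and regulatory T cell markers had pair differences of -0.56, -0.43 and -0.56 under isotype and -0.33, -0.31 and -0.17 under anti-PD-1, which did not overlap. Tnfrsf4 is itself in that sum, and without it the pair differences overlapped, at -0.36, -0.27 and -0.43 under isotype and -0.32, -0.31 and -0.18 under anti-PD-1. The sum was mostly Ctla4, Tnfrsf4, Nrp1 and Il2ra, while Cd4 was at 1.20 to 15.1 CPM and Foxp3 at 1.91 to 59.3 CPM. Foxp3, the defining factor of regulatory T cells, overlapped, with -4.14, -2.89 and -1.82 and -2.54, -3.15 and -2.26. The part of such cells in the Tnfrsf4 value was not tested. Of 18 TNF superfamily receptors, Tnfrsf4 alone was higher at 0.10 (5.56%, beside 0.809% of all genes) and none was lower. Non-overlapping order held for 5 on the higher side (27.8%, beside 9.66%) and 1 on the lower (5.56%, beside 9.54%).

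Zdhhc14, a palmitoyltransferase gene, was expressed at a low level and is outside the rule for named genes, so it was named after its values were seen. It had 102, 45 and 58 counts in isotype asGM1-negative and 0, 0 and 0 counts in isotype asGM1-positive libraries. Under anti-PD-1 it had 173, 30 and 47 counts in asGM1-negative and 324, 44 and 90 counts in asGM1-positive libraries. All 3 libraries of a single group were thus at 0 while the other 9 were not. The fitted value of 9.74 (edgeR adjusted p = 0.0387) depends on the prior count and has no meaning as a size. With 3 counts in place of each 0, the isotype pair differences are at most -4.97, -4.16 and -4.10, the anti-PD-1 ones are 0.68, 0.59 and 0.85, and the difference of differences is at least 5.11 on the log2 scale.

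Effector genes were mixed. Of 25 effector cytokines and chemokines, Ccl3, Ccl9 and Ifng were higher at 0.10, Spp1, Csf1 and Xcl1 were lower, and the median was -0.01. The calls are 12% of the list in each direction, beside 0.809% and 0.831% of all genes. Non-overlapping order held for 6 on the higher side (24%) and 8 on the lower (32%), beside 9.66% and 9.54%. Ccl3, a chemokine of activated T cells, stood at 312, 189 and 218 CPM in isotype asGM1-negative and 300, 197 and 201 CPM in isotype asGM1-positive libraries. In anti-PD-1 libraries it stood at 281, 327 and 356 CPM and 422, 557 and 553 CPM. The 3 anti-PD-1 asGM1-positive libraries were the highest of all 12, and the difference of differences was 0.70 ± 0.09 (edgeR adjusted p = 0.0548).

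Ifng, the gene of interferon-gamma, was likewise highest in the anti-PD-1 asGM1-positive libraries, at 406, 437 and 423 CPM, against 339.8, 321 and 354 CPM in their asGM1-negative partners. In isotype pairs it was at 386, 255 and 333 CPM in the asGM1-negative and 359, 240.3 and 254 CPM in the asGM1-positive libraries. Its difference of differences of 0.51 ± 0.11 passed at 0.10 (edgeR adjusted p = 0.0991), so the gene of interferon-gamma and the interferon-stimulated genes had opposite signs. Tnf gave -0.37 ± 0.11 with non-overlapping pair differences of -0.04, -0.02 and -0.20 and -0.43, -0.57 and -0.35 (adjusted p = 0.221). Ccl9, a low-expressed chemokine, gave 1.45 ± 0.24 (adjusted p = 0.0666).

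Of 26 cytotoxic granule genes, Fasl, Ctsw, Gzmg and Gzmc were lower at 0.10, Serpinb6b was higher, and the median was -0.23. The calls are 15.4% and 3.85% of the list, beside 0.831% and 0.809% of all genes, and 10 were in non-overlapping order on the lower side and 5 on the higher (38.5% and 19.2%, beside 9.54% and 9.66%). Granzymes C and G belong to a cluster of near-identical genes and are uncertain. Gzmb, the main granzyme of these cells, was measured at 5121, 4765 and 3905 CPM in isotype asGM1-negative and 9616, 8119.5 and 6718 CPM in isotype asGM1-positive libraries. The anti-PD-1 levels were 4792, 4502 and 3866 CPM and 5170.3, 6113 and 6258 CPM. All 6 asGM1-positive libraries exceeded their partners, and the pair differences, 0.91, 0.77 and 0.78 against 0.11, 0.44 and 0.70, did not overlap, but the difference of differences of -0.40 ± 0.13 did not pass (edgeR adjusted p = 0.257).

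Perforin, Prf1, had the other sign, 0.35 ± 0.10, also without passing (adjusted p = 0.183). The death ligand Fasl gave -0.48 ± 0.08 (adjusted p = 0.0667) and Ctsw, a protease of cytotoxic cells, -0.63 ± 0.11 (adjusted p = 0.0682). Gzma and Gzmk gave -0.27 ± 0.21 and 0.35 ± 0.27, with overlapping pair differences and adjusted p of 0.701 and 0.698. The list as a whole gave sums of 19663, 19097 and 15736 CPM and 24953, 26278 and 20278 CPM in the isotype groups and 19298, 21469.7 and 16542 CPM and 17716, 21189 and 19569 CPM in the anti-PD-1 groups. These sums had pair differences of 0.34, 0.46 and 0.37 under isotype and -0.12, -0.02 and 0.24 under anti-PD-1.

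Genes of naive and stem-like memory cells, the less differentiated state, leaned to the higher side. Of 28 measured, Lef1 and S1pr1 were higher at 0.10 and Xcl1 was lower, the median was 0.41, and 14 were in non-overlapping order on the higher side against 1 on the lower. As shares, 7.14% were called higher and 3.57% lower (0.809% and 0.831% of all genes), and 50% and 3.57% were non-overlapping (9.66% and 9.54%). Lef1, a partner of TCF1, was at 15.9, 12.7 and 21.4 CPM in isotype asGM1-negative and 8.40, 8.04 and 11.4 CPM in isotype asGM1-positive libraries. Under anti-PD-1 it was at 52.1, 56.3 and 56.4 CPM and 53.7, 57.2 and 52.0 CPM. Isotype asGM1-positive libraries were the lowest, and the anti-PD-1 pairs were nearly level (difference of differences 0.82 ± 0.13, edgeR adjusted p = 0.0637).

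S1pr1, the receptor that lets T cells leave tissue for blood, had pair differences of -3.28, -2.30 and -3.39 under isotype and -1.38, -1.62 and -1.90 under anti-PD-1, negative in all 6. Its levels were 16.9, 11.4 and 25.1 CPM and 1.29, 1.92 and 1.94 CPM in the isotype groups and 21.8, 38.5 and 35.8 CPM and 8.06, 12.2 and 9.24 CPM in the anti-PD-1 groups. The difference of differences was 1.63 ± 0.31 on the log2 scale (edgeR adjusted p = 0.0809), but -6.13 CPM on the linear scale, so its sign depends on the scale. That held for 8 of the 306 genes, Htra3, Itgae, Ffar4, S1pr1, Tespa1, Tsc22d1, Xcl1 and a gene with no symbol.

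Tcf7, which encodes TCF1 itself, had strongly negative pair differences in both treatments, -2.69, -3.04 and -2.51 under isotype and -3.06, -2.67 and -4.34 under anti-PD-1. These overlapped, and the difference of differences was -0.62 ± 0.41 (edgeR adjusted p = 0.63), opposite in sign to Lef1. Other genes of the list that did not pass were the lymph node homing receptor Ccr7 at 1.13 ± 0.25, Slamf6 (Ly108) at 1.06 ± 0.26 and the interleukin-7 receptor Il7r at 0.26 ± 0.13, with adjusted p of 0.102, 0.122 and 0.46. Conventional dendritic cells also express Ccr7. The pDC gene Siglech, which is not expressed by T cells, was between 0 and 0.489 CPM in asGM1-positive libraries. In asGM1-negative libraries it was at 46.2 to 71.3 CPM under isotype and 25.1 to 34.8 CPM under anti-PD-1. Summed pDC markers had non-overlapping pair differences, -0.56, -0.31 and -0.48 under isotype and -0.08, -0.02 and -0.18 under anti-PD-1, and their part in the values of this list was not tested. That sum was mostly Irf8, Runx2 and Bst2.

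Homing receptors as a group were split: of 21, S1pr1 was higher and Gpr183 and Selplg were lower at 0.10. The calls are 4.76% and 9.52% of the list, beside 0.809% and 0.831% of all genes. In each direction 5 were in non-overlapping order (23.8%, beside 9.66% higher and 9.54% lower). Gpr183, a receptor for oxysterols that guides cells in lymphoid tissue, was highest in the anti-PD-1 asGM1-negative libraries (291, 335 and 329.8 CPM) and gave a difference of differences of -0.51 ± 0.08 (edgeR adjusted p = 0.0642). Cx3cr1, a marker of circulating effector cells, gave 1.05 ± 0.23 and missed 0.10 (adjusted p = 0.102). Klrg1, a receptor of terminally differentiated effector cells, gave pair differences of 0.77, 1.05 and 0.83 under isotype and 0.11, 0.17 and 0.21 under anti-PD-1 and a difference of differences of -0.86 ± 0.17 (adjusted p = 0.0839).

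Genes of tissue residency, the programme that holds memory T cells in tissue, leaned to the lower side. Of 20 measured, 7 were lower at 0.10 and none was higher, the median was -0.51, and 12 were in non-overlapping order on the lower side with none on the higher. The calls are 35% of the list beside 0.831% of all genes, and the non-overlapping members 60% beside 9.54%. Zfp683 encodes HOBIT, a repressor of exit genes. Its levels were 22.3, 35.6 and 31.5 CPM in isotype asGM1-negative and 42.0, 59.1 and 52.6 CPM in isotype asGM1-positive libraries. In the anti-PD-1 groups they were 2.39, 2.79 and 4.36 CPM and 2.0, 1.96 and 3.37 CPM. The isotype asGM1-positive libraries were the highest, all 6 anti-PD-1 libraries lay below all 6 isotype libraries, and the difference of differences was -1.17 ± 0.15 (edgeR adjusted p = 0.0548).

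Itgae, the gene of CD103, which tethers T cells to E-cadherin, was at 72.8, 102 and 66.3 CPM and 37.1, 44.9 and 31.0 CPM in the isotype groups and at 14.0, 23.1 and 27.5 CPM and 3.07, 1.96 and 2.17 CPM in the anti-PD-1 groups. Pair differences were negative in all 6 pairs, -0.96, -1.18 and -1.08 under isotype and -2.02, -3.27 and -3.39 under anti-PD-1. The log2 difference of differences was -2.04 ± 0.34 (edgeR adjusted p = 0.0667), while on the linear CPM scale it was 23.7 CPM, the other sign. Cdh1, E-cadherin itself, gave -0.99 ± 0.19 (adjusted p = 0.0829). Cd69, which antagonises S1PR1, was -0.54 ± 0.08, with pair differences of 0.22, 0.10 and 0.18 under isotype and -0.41, -0.36 and -0.34 under anti-PD-1 (adjusted p = 0.0637). The remaining members lower at 0.10 were Cd244a, given above, Rgs2 and Xcl1. Among 18 integrin subunits, Itgb5, Itgae and Itga5 were lower at 0.10 (16.7%, beside 0.831% of all genes) and none was higher. Non-overlapping order held for 6 on the lower side (33.3%, beside 9.54%) and 3 on the higher (16.7%, beside 9.66%). Itgb5, a subunit of a vitronectin receptor, gave -1.52 ± 0.23 (adjusted p = 0.0637).

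Genes of T cell receptor activation were mostly lower where they passed. Of 40 activation and immediate-early genes, Tnfrsf4 was higher at 0.10 and Cd69, Btg2, Junb, Dusp2 and Dusp1 were lower (median -0.05), which is 2.5% and 12.5% called beside 0.809% and 0.831% of all genes. Of 37 genes of proximal signalling, Ptpn6 was lower and none was higher, and 11 (29.7%, beside 9.54% of all genes) were in non-overlapping order on the lower side against 1 on the higher. The 1 call is 2.7% of this list. Ptpn6, the phosphatase SHP-1, stood at 1299.5, 1597 and 1543 CPM and 1988, 2235 and 2206 CPM in the isotype groups and 648, 674 and 813 CPM and 662, 710.3 and 889 CPM in the anti-PD-1 groups. Its isotype asGM1-positive libraries were the highest, and the difference of differences was -0.46 ± 0.07 (edgeR adjusted p = 0.0637). All 10 CD8 T cell marker genes were below 0 (median -0.26) and 6 (60%, beside 9.54% of all genes) were in non-overlapping order on the lower side, but none passed. Cd8a gave -0.28 ± 0.08 (adjusted p = 0.172) and Cd8b1 -0.26 ± 0.09 (adjusted p = 0.255).

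Some genes outside these programmes stood close to the threshold. Anxa1, a phospholipid-binding protein that limits inflammation, had pair differences of 0.53, 0.37 and 0.38 under isotype and -0.45, -0.45 and -0.28 under anti-PD-1, opposite in sign, and a difference of differences of -0.82 ± 0.10 (edgeR adjusted p = 0.0527). The lysosomal protease gene Ctsd was at 2469, 2934 and 2736 CPM and 3534, 4394 and 4223 CPM in the isotype groups and 2793, 3089 and 2651 CPM and 2542, 2987 and 2826 CPM in the anti-PD-1 groups. Only the isotype asGM1-positive libraries were apart from the rest, above it, and the difference of differences was -0.61 ± 0.08 (adjusted p = 0.0548). Macrophages also express Ctsd, and their part in the Ctsd value was not tested. Their summed markers had overlapping pair differences, as given above. Aldoc, a glycolytic aldolase, gave -0.77 ± 0.09, and Bnip3, a hypoxia-induced mitophagy receptor, -0.61 ± 0.10 (adjusted p = 0.0548 and 0.0647), the 2 genes of 39 in the glycolysis and hypoxia list that were lower at 0.10, with none higher. They are 5.13% of that list, beside 0.831% of all genes. Il2rg, the chain shared by several interleukin receptors, gave -0.46 ± 0.08, and Slc3a2, the heavy chain of amino acid transporters, -0.45 ± 0.08 (adjusted p = 0.066 and 0.0667). Nupr1, a stress-induced chromatin protein at low level, gave -2.64 ± 0.43 (adjusted p = 0.0642).

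Enzymes that make and turn over asialo-GM1 were covered by 33 measured genes of asialo-GM1 and ganglioside metabolism. Of these, Hexa was lower at 0.10 (3.03%, beside 0.831% of all genes), none was higher, and the median was -0.09. Non-overlapping order held for 7 on the lower side (21.2%, beside 9.54%) and 3 on the higher (9.09%, beside 9.66%). List medians per pair were 0.05, 0.05 and 0.05 under isotype and -0.05, -0.01 and -0.12 under anti-PD-1. B4galnt1, which makes the GM2, GD2 and GA2 step before asialo-GM1, stood at 953, 1038 and 1356 CPM and 960.3, 903 and 1152 CPM in the isotype groups and 1284, 1269 and 1342 CPM and 1405, 1496 and 1291 CPM in the anti-PD-1 groups. Its pair differences overlapped, and the difference of differences was 0.25 ± 0.10 (edgeR adjusted p = 0.39). B3galt4, which adds the next galactose, gave -0.21 ± 0.19, St3gal5, the synthase of GM3, -0.76 ± 0.31, and St3gal2, which adds sialic acid to asialo-GM1 and GM1, 0.03 ± 0.29 (adjusted p = 0.736, 0.363 and 0.987). Hexa, a lysosomal hexosaminidase subunit that degrades GM2, gave -0.58 ± 0.11 (adjusted p = 0.0795). None of 13 sialyltransferases passed at 0.10. In that list 3 were non-overlapping on the lower side (23.1%, beside 9.54%) and 1 on the higher (7.69%, beside 9.66%).

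The respiratory chain and the ribosome had medians above 0. The 13 mitochondrially encoded genes had a median of 0.49, all 13 above 0, with list medians per pair of -0.71, -0.59 and -0.39 under isotype and -0.12, -0.43 and 0.40 under anti-PD-1. Those per-pair medians overlapped, none of the genes passed at 0.10, and 4 (30.8%, beside 9.66% of all genes) were in non-overlapping order on the higher side. The 80 cytosolic ribosomal protein genes had a median of 0.22, but none was in non-overlapping order and the per-pair medians, -0.55, 0.08 and -0.34 under isotype and -0.10, -0.43 and 0.34 under anti-PD-1, overlapped. Leaving out a pair moved that median from 0.02 to 0.41. The 75 nuclear genes of the respiratory chain had a median of 0.13 and no call at 0.10.

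The remaining lists are given with their calls at 0.10, beside 0.809% of all genes called higher and 0.831% called lower. Cholesterol synthesis and uptake (median -0.17, 32 genes), fatty acid oxidation (0.00, 26), the BCL2 family (0.02, 17), metallothioneins and zinc handling (-0.03, 17) and the TGF-beta and SMAD pathway (-0.12, 20) had none. Annexins, S100 proteins and galectins had 2 lower (9.52%), Anxa1 and Lgals3bp, of 21 (median -0.09). The unfolded protein list had Hsp90b1 higher (2.7%) and Nupr1 and Slc3a2 lower (5.41%) of 37 (median 0.05). Heat shock chaperones had Dnajb1 lower (4%) of 25 (0.03), and cytokine receptor chains had Il2rg lower (3.85%) of 26 (-0.14). Pair differences were non-overlapping and lower for 38.1% of the annexin, 35.3% of the metallothionein and 25% of the cholesterol list, beside 9.54% of all genes. On the higher side these shares were 0%, 5.88% and 6.25%, beside 9.66%. The heat shock gene Hspa1a itself gave -0.82 ± 0.18 (edgeR adjusted p = 0.102).

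**Figure D3:**
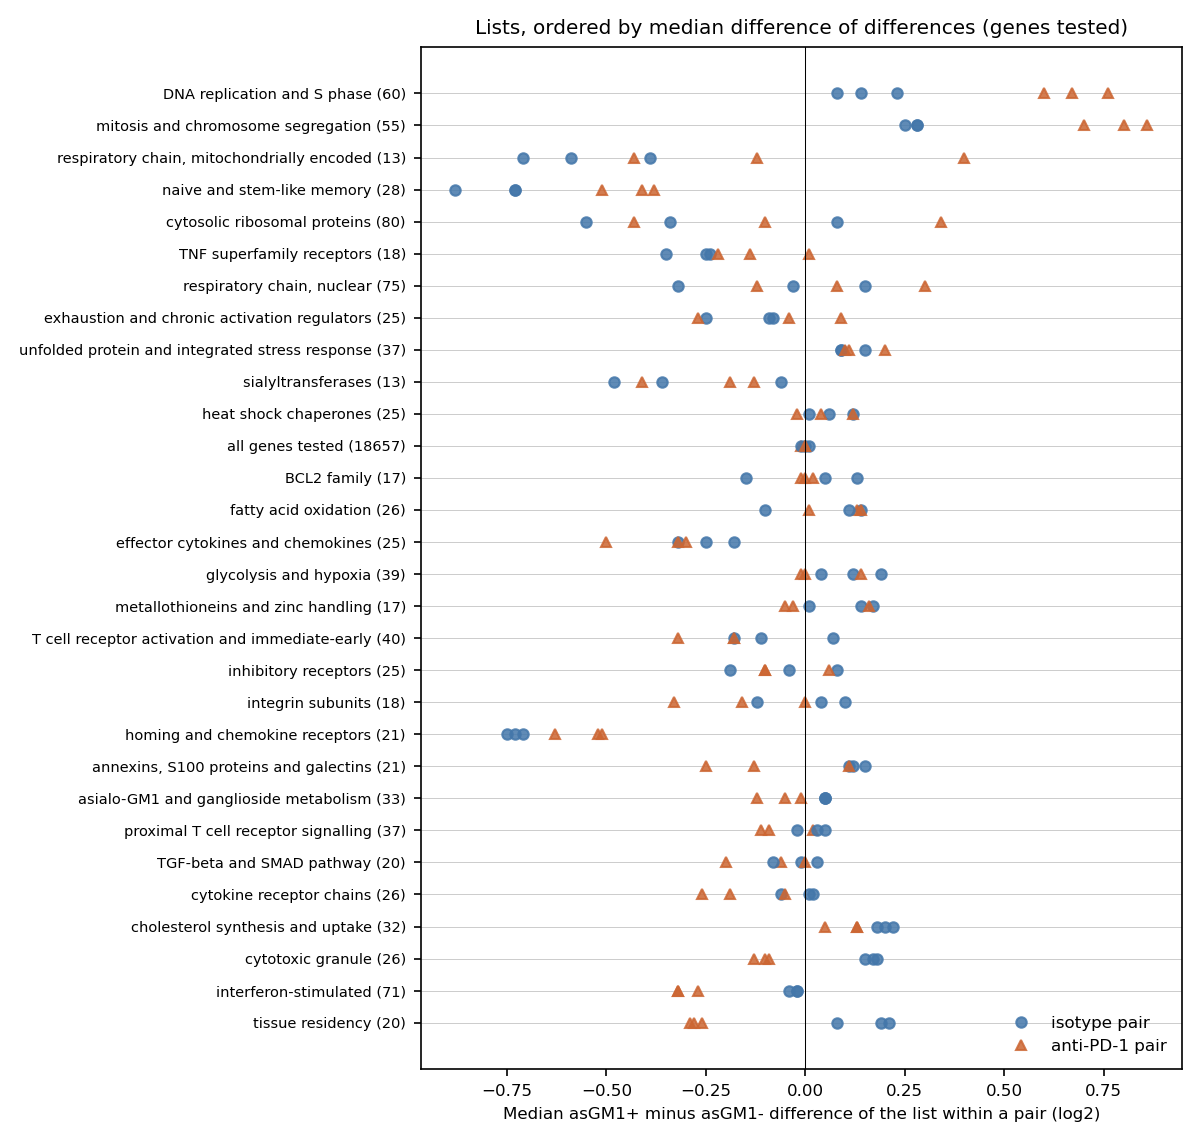
Median pair difference (asGM1-positive minus asGM1-negative, log2, horizontal axis) over the genes of each function list, for the 3 isotype pairs (circles) and the 3 anti-PD-1 pairs (triangles); lists are ordered by their median difference of differences. Replication, mitosis and the naive list have all 3 triangles to the right of the circles, interferon-stimulated, residency and cytotoxic granule genes have all 3 to the left, and ribosomal proteins overlap.

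Summed markers of some other cell types were in non-overlapping order as well, and their part in the values above was not tested. On the higher side were the summed markers of pDC, of CD4 and regulatory T cells (not without Tnfrsf4) and of endothelium, the last from -0.83, -0.47 and -0.45 under isotype to -0.19, -0.17 and -0.30 under anti-PD-1. The lower side held those of conventional dendritic cells (-0.23, 0.02 and -0.35 and -0.36, -0.40 and -0.40), NK cells (0.04, 0.11 and 0.00 and -0.24, -0.11 and -0.12), epithelial tumour cells (0.54, 0.30 and 0.47 and -0.54, -0.02 and -0.52) and CD8 T cells themselves (0.08, 0.18 and 0.07 and -0.16, -0.25 and 0.04). The conventional dendritic cell sum was mostly H2-Ab1, H2-Aa, H2-Eb1 and Ccr7. The median pair differences over the 13 genes of that list were on the other, higher side. They were -1.29, -0.85 and -1.1 under isotype and -0.69, -0.34 and -0.74 under anti-PD-1. Of these genes, 1 was non-overlapping in each direction (7.69%, beside 9.66% higher and 9.54% lower over all genes). The NK sum was mostly Klrk1 and Klrd1, which CD8+ T cells also express, while the NK-defining Ncr1 was at 1.85 CPM or less in every library. Klrb1c of that list was at 4.82 to 9.16 CPM in isotype asGM1-negative and 14.8 to 22.1 CPM in isotype asGM1-positive libraries. Under anti-PD-1 it was at 0.975 to 3.34 CPM and 0.835 to 4.86 CPM. Of 15 NK list genes tested, 4 were non-overlapping on the lower side (26.7%, beside 9.54% of all genes) and 3 on the higher (20%, beside 9.66%). The epithelial sum was mostly Cdh1, without which its pair differences overlapped (-0.09, 0.74 and 0.16 under isotype and 0.05, 0.27 and 0.04 under anti-PD-1), with Krt7, Krt19 and Cldn4 at 0 counts in all 12 libraries, and Tek and Emcn of the endothelial list were at 0 as well. The summed level of the epithelial list was 62.8 to 90.5 CPM in isotype asGM1-negative, 91.3 to 112 CPM in isotype asGM1-positive, 26.3 to 32.7 CPM in anti-PD-1 asGM1-negative and 17.9 to 28.0 CPM in anti-PD-1 asGM1-positive libraries. The pDC sum was mostly Irf8, Runx2 and Bst2, with Irf8 at 495 to 739 CPM over all 12 libraries. Siglech, of the same list, was at 0.489 CPM or less in asGM1-positive libraries. Of 15 pDC list genes tested, 8 were non-overlapping on the higher side (53.3%, beside 9.66% of all genes) and none on the lower (beside 9.54%). For 10 of them (66.7%, beside 1.81% of all genes) the isotype asGM1-negative libraries were the highest. Several were at or near 0 CPM in asGM1-positive libraries. The endothelial sum was mostly Pecam1, at 12.7 to 36.6 CPM. Pecam1 by itself had overlapping pair differences, -0.48, -0.30 and -0.24 under isotype and -0.15, -0.12 and -0.31 under anti-PD-1.

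Among marker genes, Tnfrsf4 and Nrp1 of the CD4 list, Pacsin1 of the plasmacytoid dendritic cell list and Igkc of the B cell list were higher at 0.10, and Ighd and Cdh1 were lower. Nrp1, a semaphorin receptor, gave 0.62 ± 0.12 and Pacsin1, a membrane-bending protein, 1.14 ± 0.24 (edgeR adjusted p = 0.0763 and 0.0897). The immunoglobulin genes Igkc and Ighd gave 1.49 ± 0.31 and -3.01 ± 0.57, of opposite sign, at levels of 25.1 CPM or less. The remaining marker sums, of macrophages, neutrophils, gamma-delta T cells, B cells, fibroblasts and erythroid cells, had overlapping pair differences. The macrophage genes Apoe and C1qb gave -0.76 ± 0.23 and -0.33 ± 0.32 (adjusted p = 0.217 and 0.774).

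Which group stood apart differed between the higher and the lower genes. Of the 151 higher at 0.10, 89 had the 3 anti-PD-1 asGM1-negative libraries below the other 9, 29 had the isotype asGM1-positive libraries lowest, and 5 had the anti-PD-1 asGM1-positive libraries highest. The 155 lower genes were spread more evenly: the anti-PD-1 asGM1-positive libraries were lowest for 30, the isotype asGM1-positive libraries highest for 29, the anti-PD-1 asGM1-negative libraries highest for 25 and the isotype asGM1-negative libraries lowest for 13. Over all 18657 genes the matching counts were 798, 437 and 180, then 215, 548, 465 and 251. Since the same libraries gave the calls, these counts describe the 306 genes and test nothing.

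**Figure D4:**
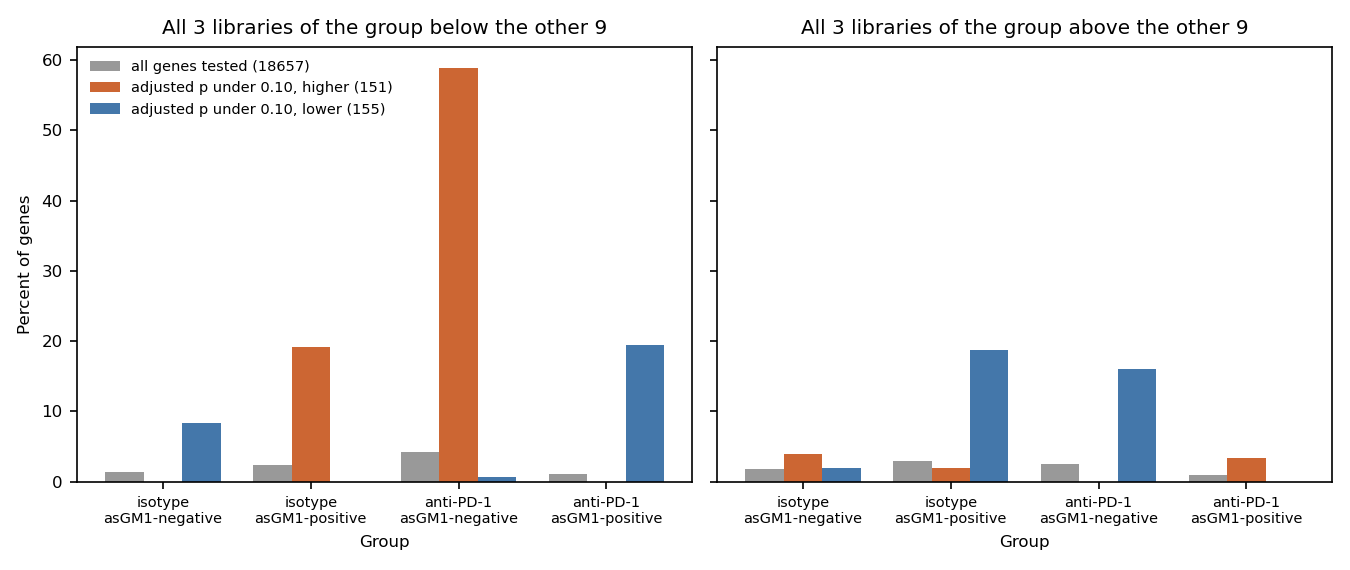
Percent of genes (vertical axis, from 0) for which all 3 libraries of a group lay below (left) or above (right) the other 9 libraries, for all genes tested (grey) and for genes higher (orange) or lower (blue) at an adjusted p under 0.10. The tallest bar is the anti-PD-1 asGM1-negative group among higher genes, at 58.9% of 151 against 4.28% of all genes.

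**Figure D5:**
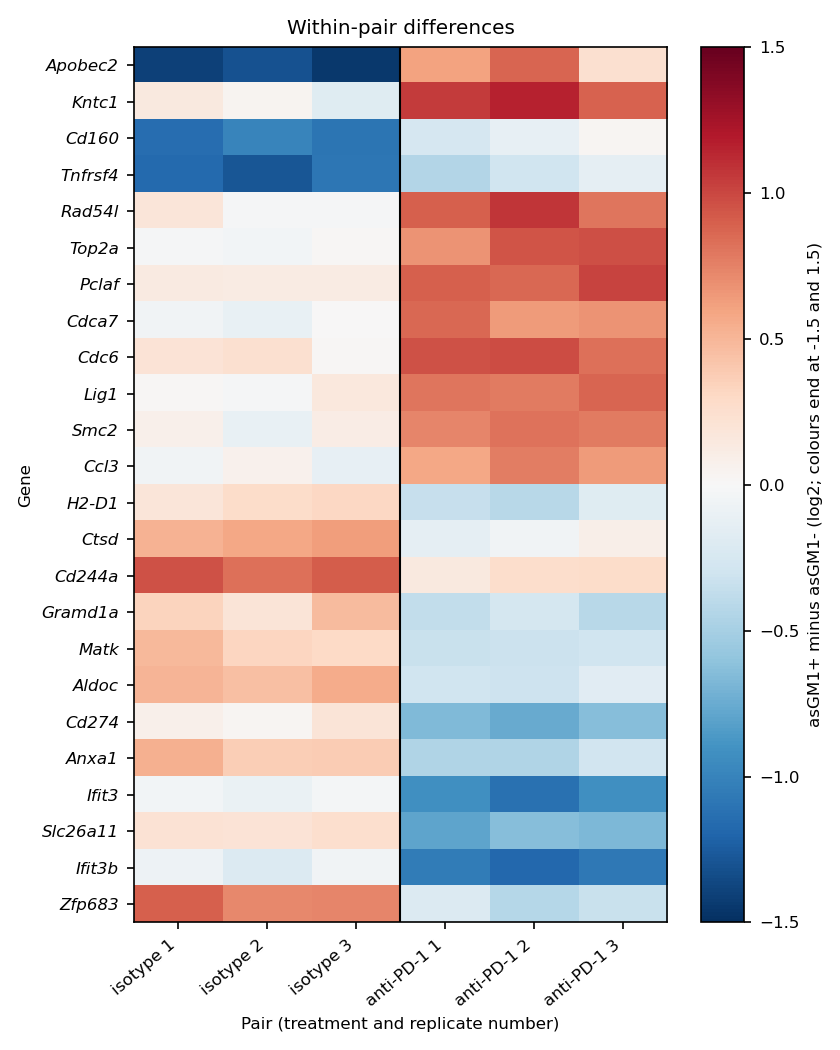
Pair difference (asGM1-positive minus asGM1-negative, log2, colour scale ending at -1.5 and 1.5) of 24 named genes in each of the 6 pairs, ordered by difference of differences, with higher genes at the top. The 3 pairs of a treatment share their colour in most rows; Cd160 and Tnfrsf4 are blue under isotype and pale under anti-PD-1, and Ifit3 and Ifit3b are pale under isotype and blue under anti-PD-1.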

How the data were processed

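RNA of 12 sorted libraries was sequenced after preparation with SMARTer ultra-low-input and TruSeq kits, per the labels' protocols. The tools HISAT2 and StringTie and build mm39 appear without versions, per the submitters' processing notes. Annotation, strand use and the handling of multiply matching reads are not given in the sources used here, so near-identical, overlapping and antisense genes are uncertain. Whole-number counts of 56941 genes, with a column per library, are what the authors deposited.

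Counts were tested with edgeR 4.0.16 (limma 3.58.1, R 4.3.3): expression filter by group, TMM factors (0.970 to 1.04), and a quasi-likelihood F test in a design of 6 pair terms, an asGM1-positive term and the interaction, with 4 residual and a median of 4.16 prior degrees of freedom. The biological coefficient of variation was 0.241. P-values were adjusted by Benjamini-Hochberg over 18657 genes. A standard error is the log2 value divided by the root of F. Pair differences are of log2(CPM + 0.5). The 310 genes without a symbol stayed in. DESeq2 1.42.0, limma voom, scaling, filter, block, robust prior and leaving out libraries were alternatives, and the sign on the linear CPM scale and marker sums without a called member were checks added after the data were seen. The fit was tested on simulated data.

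The pairs come from the replicate numbers in the labels. No label says what a shared number stands for. Deviations from group means correlated within pairs at 0.168, 0.132 and 0.216 (isotype) and 0.261, 0.100 and 0.149 (anti-PD-1). Each was higher than between asGM1-negative and asGM1-positive libraries of different pairs of the treatment, at most 0.0223. Subtracting group means pushes the values between pairs down when those within pairs are above 0, so part of this gap is built in. Libraries of the same group were not compared.

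Genes named were the 12 with the largest change past 0.05 in each direction, filled up to 12 by smallest p, leaving out predicted genes, variable segments and an average log2 CPM under 1, up to 2 per list by smallest p, and a fixed set. Other genes are named only to complete short counts, after their values were seen. The 29 function and 13 marker lists (1041 names, of which 1 was not found) and the comparison were chosen with earlier results of these data known.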

Additional observations from a re-analysis of the deposited data

Results flagged for a closer look

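For 5 genes the test of the difference between the anti-PD-1 effects in the 2 populations passed at an adjusted p under 0.05 (edgeR, 3 pairs per treatment). Cd160 had a difference of differences of 0.97, Pclaf 0.80 and Zdhhc14 a fitted 9.74, of which the last rests on a group with 0 counts in all 3 libraries. Ifit3 gave -0.94 and Ifit3b -1.0. In each of them the 3 anti-PD-1 pair differences lay on 1 side of the 3 isotype ones, which is no separate evidence, since the same pairs gave the calls.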

How the results depend on the processing

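The count of 5 genes at an adjusted p under 0.05 moved with most choices. It was 0 with no replicate block, 0 with a block by replicate number over all groups and 0 with no filter on low counts. It was 786 with DESeq2, 155 with limma voom, 224 with the stricter filter, 13 with a robust prior, 9 with library totals only and 306 at a threshold of 0.10. Leaving out a pair, or a library with no block, gave 0 to 1 genes, the 1 being without anti-PD-1 replicate 1. RLE scaling kept 5, the same genes. The cause was not tested, except that leaving out libraries or filtering changes the number of samples or genes in the test. At 0.10, 98 genes passed without anti-PD-1 replicate 3 and 0 or 1 without any other pair. The 5 genes that passed kept their direction in each alternative that tested them, 25 for Zdhhc14 and 27 for the other 4. Of the other named genes, 9 that did not pass changed sign when a pair or a library was left out: the log2 difference of differences ran from -1.99 to 0.48 for Hspa1a, -0.80 to 13.8 for Hbb-bs, -2.47 to 0.92 for Trgc1, -0.26 to 7.45 for Siglech, -0.42 to 0.26 for Gzma, -0.27 to 0.96 for Foxp3, -0.29 to 0.11 for Tigit, -2.39 to 2.06 for Ncr1 and -0.22 to 0.36 for St3gal2. St3gal2 was also at -0.03 with no replicate block. For Zdhhc14, with a group at 0 counts, depth allows only a lower bound. The fit has 4 residual degrees of freedom, and the effect of more pairs was not tested.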

Other observations

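Other named genes also stood close to the threshold. Slc26a11, an anion transporter of lysosomes and the cell surface, was at 16.4, 23.2 and 17.8 CPM and 19.1, 26.9 and 21.3 CPM in the isotype groups and 40.7, 47.9 and 56.6 CPM and 23.3, 30.6 and 35.2 CPM in the anti-PD-1 groups, asGM1-negative first. Its anti-PD-1 asGM1-negative libraries were the highest, and the difference of differences was -0.94 ± 0.12 (edgeR adjusted p = 0.0548). Gramd1a, which carries cholesterol from the plasma membrane to the endoplasmic reticulum, gave pair differences of 0.34, 0.19 and 0.47 under isotype and -0.37, -0.27 and -0.41 under anti-PD-1, opposite in sign, and a difference of differences of -0.69 ± 0.09 (adjusted p = 0.061). Matk, a kinase that inactivates SRC-family kinases, behaved alike, with 0.48, 0.32 and 0.30 and -0.34, -0.33 and -0.29 (-0.69 ± 0.09, adjusted p = 0.0578). Lgals3bp, a secreted galectin-binding glycoprotein, gave -0.67 ± 0.10 (adjusted p = 0.0627). Apobec2, a member of the cytidine deaminase family at 0.809 to 5.86 CPM, had -1.40, -1.30 and -1.45 under isotype and 0.60, 0.88 and 0.24 under anti-PD-1, and 2.44 ± 0.33 (adjusted p = 0.0553).

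Several named genes with non-overlapping pair differences missed 0.10. Among them were the nuclear receptor gene Nr4a3 (1.17 ± 0.26, edgeR adjusted p = 0.106), the cytokine receptor chain Csf2rb (1.04 ± 0.24, 0.109) and the fatty acid carrier Fabp5 (0.94 ± 0.22, 0.121) on the higher side. On the lower side were the metallothioneins Mt1 (-1.04 ± 0.25, 0.122) and Mt2 (-0.92 ± 0.27, 0.193), the cholesterol exporter Abca1 (-2.04 ± 0.45, 0.103) and the signalling chain Fcer1g (-1.22 ± 0.27, 0.102). Fcer1g was at 98.6, 114 and 55.4 CPM and 251, 301 and 213 CPM in the isotype groups and 25.4, 54.6 and 22.0 CPM and 27.2, 54.2 and 42.8 CPM in the anti-PD-1 groups, highest in isotype asGM1-positive libraries.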
